A study of Mus musculus with 23 samples.

Results

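Epiblast stem cells (epiSCs) were compared with mouse embryonic stem cells (ESCs) grown in serum, on Illumina BeadChip arrays, on which each bead type carries 1 probe sequence. The comparison takes 5 epiSC arrays and 6 ESC arrays, 11 of the 23 arrays of the series, and pools the Blimp1 (Prdm1) genotypes. The epiSC lines were BL3, BL4 and BL7, heterozygous for Blimp1, and BL2 and BL6, null for it. The ESC lines were PAN1, PUM3 and CHE4 (heterozygous) and JAG1, JAG2 and B12 (null). So every array of both groups carries at least 1 mutant Blimp1 allele, and no wild-type line is among them. The arrays were chosen by their titles alone. The labels give both groups the background C57Bl6/CBA/129, and Blimp1 itself was not analysed here.

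Per the study's methods, epiSCs came from post-implantation epiblasts and grew on mouse embryonic fibroblast feeders (MEFs) in N2B27 medium with activin A, bFGF and serum replacement. The ESC lines were derived from preimplantation embryos in 2i/LIF, and standard ESC medium holds LIF and fetal calf serum. No line is in both groups, so the line, the embryo of origin, the medium and the state cannot be told apart. Each line gave 1 array, and n counts lines. The study took several ESC lines from some embryos, so n need not count independent embryos. Among ESC pairs JAG1 and JAG2 correlated most closely over the tested probes, at 0.993 against a median of 0.959. Their embryo of origin was not checked here.

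Both cell types are pluripotent and self-renew, but they stand for successive stages of the epiblast. ESCs correspond to the naive epiblast of the blastocyst and are held there by LIF and STAT3, with factors such as Klf4, Esrrb and Tfcp2l1. EpiSCs correspond to the primed epiblast after implantation, depend on activin and FGF, and share Oct4 (Pou5f1) and Sox2 with ESCs.

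Of 8409 genes tested 3314 were called (39.4%), 1746 higher in epiSCs (20.8%) and 1568 lower (18.6%), at a limma adjusted p under 0.01, and the median change over all genes was 0.03 on the log2 scale. These shares are the background for every gene list below. A list counts its tested members only, and a gene undetected in one group passed the filter on dim probes through the other group alone. The 2 groups did not overlap for 1545 genes above (18.4%) and 1169 genes below (13.9%) the ESC range. A change over 2-fold was called for 830 genes higher (9.87%) and 756 lower (8.99%). On the probe level 5139 of 13856 probes were called (37.1%), 2604 higher (18.8%) and 2535 lower (18.3%), and 1204 (8.69%) and 1211 (8.74%) by over 2-fold. The groups did not overlap for 2283 probes above (16.5%) and 1893 below (13.7%). With median scaling in place of quantile normalization the split was 1711 higher to 2729 lower, with the median of all tested probes at -0.10. Levels are normalized log2 signals, and undetected probes lie at about 4 to 5. The arrays detected 12655 to 14599 probes in epiSCs and 12781 to 14113 in ESCs. A lower level in bulk RNA can mean fewer cells that express a gene or less RNA per cell, and these cannot be told apart.

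The BL6 array stood apart among the epiSCs. Its correlation with the other 4 epiSC arrays over the tested probes was 0.940 to 0.966, against 0.959 to 0.982 among those 4. Its correlation with the ESC arrays was 0.879 to 0.929, against 0.825 to 0.895 for the other epiSC arrays. Calls, list counts and gene changes were therefore also computed without it, which gave 1761 genes higher (20.2%) and 1640 lower (18.9%) of 8697 tested.

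Of the 2 genes that mark the states, Fgf5 separated all arrays and Zfp42 all but BL6. Fgf5, a secreted growth factor that comes on in the epiblast after implantation, had levels of 8.17, 8.94, 7.73, 8.09 and 7.63 in the epiSC lines BL3, BL4, BL7, BL2 and BL6. In ESCs its lowest, median and highest levels were 4.32, 4.61 and 5.38. All 5 epiSC arrays lay above all ESC arrays, and the change was 3.42 ± 0.24 (SE, 10.7-fold, limma adjusted p = 5.5e-07). Zfp42 (Rex1), a zinc finger gene on at the naive stage, had levels of 4.63, 4.38, 6.32, 4.59 and 9.38 in the same epiSC order. In ESCs it ranged over 7.05, 9.0 and 10.13. BL6 alone held Zfp42 inside the ESC range, while its Fgf5 level was that of an epiSC. Zfp42 changed by -2.99 ± 0.83 (adjusted p = 0.0091) over all arrays and by -3.89 (adjusted p = 0.00012) without BL6. The call was lost with no background correction (-1.93, adjusted p = 0.017), with offset 50 (-2.22, adjusted p = 0.013), in the authors' value table (-1.70, adjusted p = 0.022), with no filter on dim probes (adjusted p = 0.043), with genotype as a covariate (adjusted p = 0.013) and in null lines alone (-1.76, adjusted p = 0.32). Leaving out any 1 of 9 other arrays took its adjusted p to between 0.012 and 0.028, among them each heterozygous epiSC line, BL2, PUM3, CHE4 and all 3 null ESC lines. Normalized over all 23 arrays, Fgf5 had a median of 5.23 in ESCs reverted from epiSCs (rESCs) and 4.45 in ESCs in 2i/LIF, while Zfp42 had a median of 10.41 in rESCs and 10.33 in 2i/LIF.

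**Figure D1:**
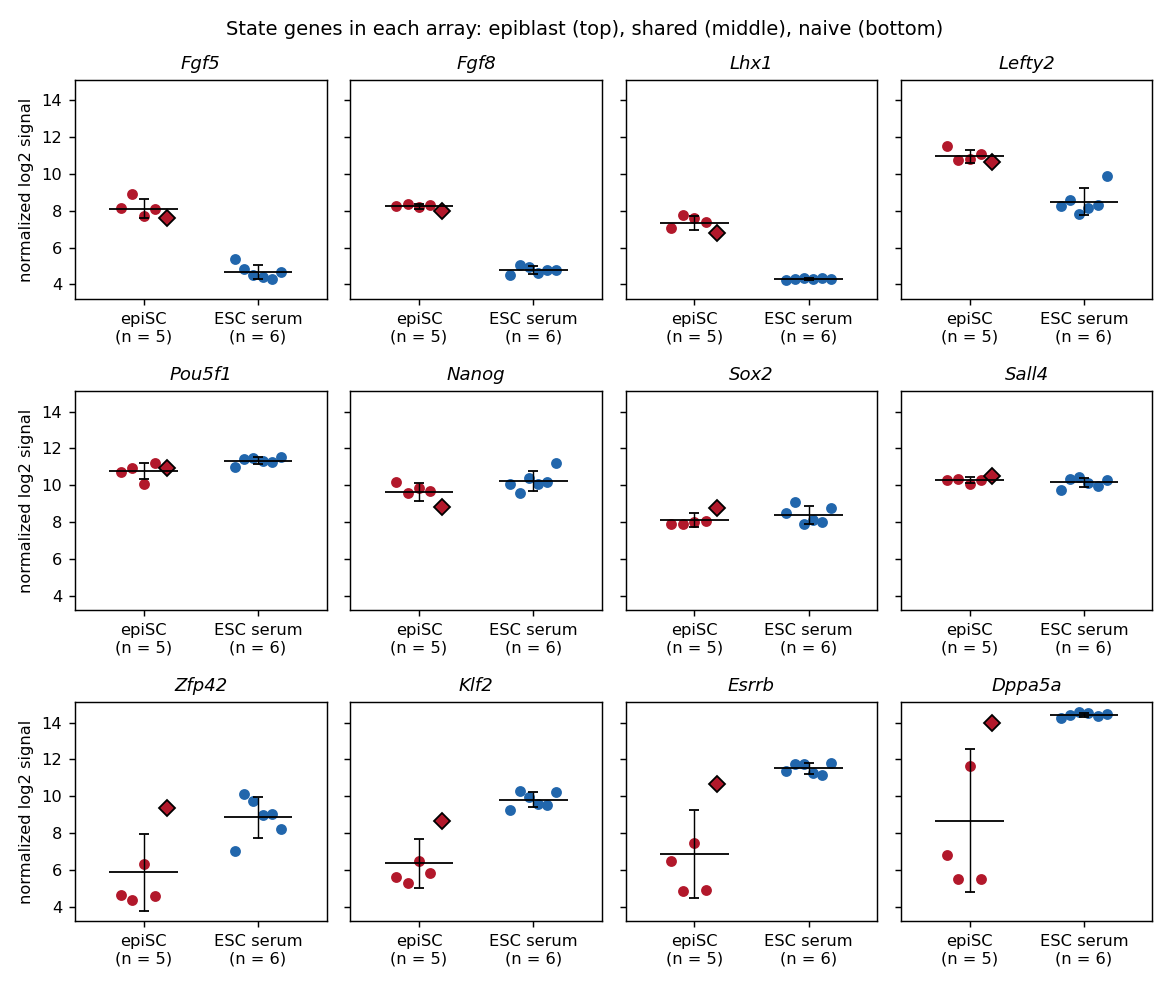
Normalized log2 signal of 12 genes in each array (5 epiSC arrays left in red, 6 ESC arrays in serum right in blue, bars for mean and SD, a diamond for BL6). Fgf5, Fgf8, Lhx1 and Lefty2 lie above the ESC range in all 5 epiSC arrays, Pou5f1, Nanog, Sox2 and Sall4 overlap, and for Zfp42, Klf2, Esrrb and Dppa5a the BL6 diamond is the epiSC point nearest to the ESCs.

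The promoter of Zfp42 is shown because this gene marks the naive state and its promoter holds an octamer, the site read by Oct4, which both cell types expressed. The sequence is that of RefSeq on GRCm38.p6 and runs 5′ to 3′ on the gene's strand, from upstream of the gene start to a little past it. Capitals mark the match to the octamer ATGCAAAT, here on the other strand.
Zfp42, chr8:43306960-43307259, minus strand: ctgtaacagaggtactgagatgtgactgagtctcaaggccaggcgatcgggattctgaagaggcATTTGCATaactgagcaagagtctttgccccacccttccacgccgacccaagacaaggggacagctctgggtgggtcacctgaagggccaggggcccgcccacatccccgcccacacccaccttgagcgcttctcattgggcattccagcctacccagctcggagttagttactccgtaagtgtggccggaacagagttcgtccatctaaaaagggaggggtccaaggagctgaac
The octamer was searched on both strands and occurs in 1.74% of 32851 promoters of this length. It occurs in 1 of the 9 naive genes lower in epiSCs that have a promoter in the table, which is Zfp42. A match is a description of the letters and no evidence of a bound site.

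The naive gene network was lower in epiSCs. Of 20 tested members of the naive list 17 fell and 1 rose, with a median change of -3.05 against 0.03 over all genes, and without BL6 18 of 21 fell with a median of -3.59. Klf2, a Krüppel-like factor that sustains self-renewal, had levels of 5.64, 5.27, 6.46, 5.83 and 8.63 in BL3, BL4, BL7, BL2 and BL6, against a lowest, median and highest level of 9.27, 9.76 and 10.28 in ESCs. Its change was -3.44 ± 0.48 (adjusted p = 9.4e-05), and no epiSC array reached the ESC range. Klf4, a reprogramming factor, had 4.75, 4.59, 5.44, 4.39 and 5.26 in the epiSC lines, against 6.98, 8.06 and 8.98 in ESCs. BL6 lay among the other epiSC lines here, and the change was -3.05 ± 0.33 (adjusted p = 1.3e-05) over all arrays and -3.16 without BL6. Klf5 overlapped through BL6, at 10.25 where the other epiSCs had 8.12 to 8.69 and ESCs a median of 10.47, and changed by -1.70 (adjusted p = 0.00095).

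Esrrb, an orphan nuclear receptor, ran from 4.85 in BL4 to 10.65 in BL6 and was 11.14, 11.56 and 11.83 in ESCs. The epiSC lines were spread widely and all lay below the ESCs, and the change was -4.65 ± 0.82 (25.1-fold, adjusted p = 0.00047). Tfcp2l1, a target of STAT3, changed by -3.64 and Tbx3, a T-box factor, by -3.20, both with no overlap. Other probes of Tbx3 changed by -2.76 and -0.68. Dppa5a, an RNA-binding protein gene, was at 6.83, 5.48, 11.64, 5.49 and 13.96 in BL3, BL4, BL7, BL2 and BL6, and at 14.27, 14.45 and 14.58 in ESCs. BL7 stood between the other lines and BL6 here, and the change was -5.76 ± 1.31 (adjusted p = 0.0028). Dppa3 (Stella), a maternal factor that guards methylation in the zygote, changed by -3.04 (adjusted p = 0.00039), with BL6 at 7.39 above B12, the lowest ESC array at 6.75.

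Fgf4, the FGF that ESCs make themselves, had 4.38, 4.38, 4.45, 4.60 and 6.59 in the epiSC lines and 7.70, 8.96 and 9.56 in ESCs. Only BL6 showed it above detection among the epiSCs, and the change was -3.86 ± 0.44 (adjusted p = 1.9e-05). Pecam1, an adhesion molecule of the inner cell mass, changed by -2.41, and Cdh1 (E-cadherin) by -2.01 (adjusted p = 1.9e-05). Prdm14, a regulator of naive pluripotency and germ cells, changed by -1.56 (adjusted p = 0.0086), and this call was lost without any 1 of 9 other arrays (adjusted p from 0.012 to 0.024), those of BL3, BL4, BL7, BL2, PUM3, CHE4, JAG1, JAG2 and B12. It was also lost with no background correction (-0.77, adjusted p = 0.013), with offset 50 (-0.92, adjusted p = 0.011) and in the authors' value table (-0.61, adjusted p = 0.017). Nr5a2, a nuclear receptor, did not pass (-1.06, adjusted p = 0.02), and without BL6 it did (-1.29, adjusted p = 0.0064). Gbx2, a homeobox gene that is a LIF-STAT3 target in ESCs and also patterns the hindbrain, was the 1 naive member called higher, while Stat3, at 0.42, did not pass (adjusted p = 0.026). Gbx2 levels in epiSCs of 8.45 to 10.06 lay above the ESC levels of 6.28 to 8.14, and the change was 2.37 ± 0.38 (adjusted p = 0.00024).

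Counted by array, BL3, BL4, BL7 and BL2 held 2 or 3 of the 20 naive members at or above the lowest ESC array, and BL6 held 8. The median distance of the naive members from the ESC median was -3.95, -3.94, -2.74 and -3.80 in these 4 lines and -1.03 in BL6. On the epiblast list BL6 was not apart: 12 of its 16 members lay above the highest ESC array, against 10 to 12 in the other lines. Among null lines alone, BL2 and BL6 against 3 ESC lines, 1 naive member was called lower.

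**Figure D2:**
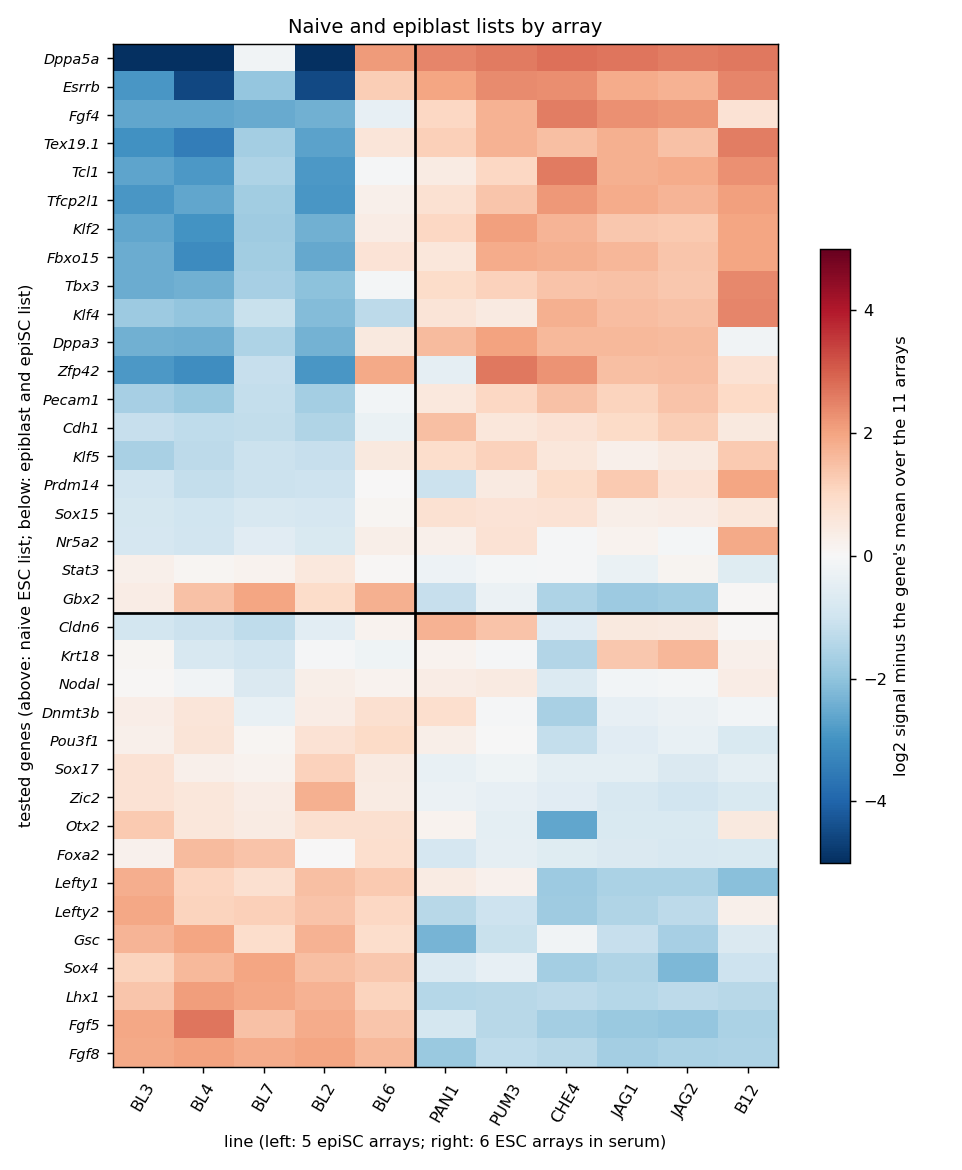
Log2 signal minus each gene's mean over the 11 arrays, for the 20 tested naive members (above the line) and the 16 tested epiblast members (below it), with 5 epiSC arrays left and 6 ESC arrays in serum right. The BL6 column is pale or red for most naive genes, where the other epiSC columns are blue, and red for most epiblast genes, like those columns. Cldn6 and Krt18 are among the exceptions.

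Most core factors that both states share did not pass the test. Pou5f1 (Oct4) had 10.70, 10.95, 10.04, 11.19 and 10.95 in BL3, BL4, BL7, BL2 and BL6, against 10.97, 11.36 and 11.51 in ESCs. The groups overlapped, and the change of -0.55 ± 0.19 had an adjusted p of 0.026. Nanog averaged 9.62 ± 0.50 in epiSCs and 10.24 ± 0.54 in ESCs (SD, n = 5 and 6), a change of -0.62 ± 0.28 (adjusted p = 0.076). Sox2 changed by -0.26 ± 0.23 (adjusted p = 0.37), and among epiSCs it was highest in BL6, at 8.76. Sall4, a zinc finger partner of Oct4, changed by 0.14 ± 0.14 and Lin28a, an inhibitor of let-7 maturation, by 0.60 ± 0.27, neither of which passed. These misses do not show that the levels are alike.

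Of the 10 core members tested, 2 fell. Dppa4, a chromatin protein gene, had 4.75, 4.85, 6.95, 4.74 and 10.50 in the epiSC lines and 10.70, 11.05 and 11.36 in ESCs, a change of -4.69 ± 0.86 (adjusted p = 0.00062). Utf1, a chromatin protein of undifferentiated cells, changed by -1.99 ± 0.48 (adjusted p = 0.0038), and its adjusted p was 0.013 without BL4, 0.012 without BL7 and 0.012 without BL2. As for most naive genes, BL6 was the epiSC array nearest to the ESCs for both.

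Genes of the post-implantation epiblast were mostly higher. Of 16 tested members of the epiblast list 11 rose and 0 fell, with a median of 1.48, or 1.20 with the 5 members that ESCs did not show set at their lower bounds. A bound divides the epiSC level by the dimmest detectable signal of the ESC arrays. Without BL6 11 of 17 members rose and 1 fell, with a median of 1.52. Among the 5 that did not pass over all arrays, Cldn6 changed by -1.32 and Krt18 by -0.70. Fgf8, a growth factor of the primitive streak, was the steadiest, at 8.26, 8.37, 8.23, 8.34 and 7.98 in BL3, BL4, BL7, BL2 and BL6, and not above background on any ESC array. It was at least 8.73-fold higher (adjusted p = 3.2e-09). Lhx1, a LIM homeobox gene of the anterior streak and visceral endoderm, had 7.06, 7.77, 7.61, 7.4 and 6.81 and was at background on every ESC array, so at least 4.67-fold higher (adjusted p = 6.1e-08).

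Foxa2, a forkhead factor of endoderm and node, was at least 1.73-fold higher (adjusted p = 0.00035), with epiSC levels from 5.11 in BL2 to 6.67 in BL4. Gsc (goosecoid), an organizer homeobox gene, changed by 2.63 ± 0.34 and Sox4 by 2.78 ± 0.29, both with no overlap. Sox17, an endoderm factor, was at least 1.35-fold higher (adjusted p = 0.00033). Otx2, a homeobox gene of the anterior epiblast, averaged 9.43 ± 0.34 in epiSCs and 7.99 ± 1.08 in ESCs and did not pass (adjusted p = 0.014), since ESC levels ran from 6.04 to 9.13. Dnmt3b, the de novo methyltransferase of the epiblast, changed by 0.62 (adjusted p = 0.15), and its other probe by -0.03. Pou3f1 (Oct6) passed with 0.97 ± 0.25 (adjusted p = 0.0060), and missed without any 1 of 7 arrays (adjusted p from 0.011 to 0.016), BL4, BL2, BL6, CHE4, JAG1, JAG2 and B12.

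The anterior streak list showed 8 of 11 members higher and 1 lower, with a median of 2.02. These 11 are of 21 with a probe, and 5 of them (Foxa2, Lhx1, Sox17, Fgf8 and Shh) were undetected on every ESC array and so were tested only because they are high in epiSCs. The list shares Gsc, Foxa2, Lhx1, Sox17 and Fgf8 with the epiblast list. Shh (sonic hedgehog), made by the node and notochord, had 6.68, 9.47, 9.32, 7.01 and 8.59 in BL3, BL4, BL7, BL2 and BL6 and was undetected on all ESC arrays, at least 8.61-fold higher (adjusted p = 3.5e-05). Foxa1 changed by 2.02 ± 0.29 and Chrd, which encodes the BMP antagonist chordin, by 2.90 ± 0.26. Shh and Foxa2 were both lowest in BL3 and BL2.

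Neural and ectodermal genes moved the same way, 12 of 14 higher and 0 lower, with a median of 2.07. Their summed level was 7965 to 13921 in epiSCs, 1486 to 2345 in ESCs and 6333 in the MEF array, over 17 members. Sox11, a neural SoxC factor, had 11.01, 11.26, 11.66, 11.09 and 10.99 in the epiSC lines and 5.87, 6.90 and 8.62 in ESCs, a change of 4.06 ± 0.45 (adjusted p = 1.6e-05). Nnat (neuronatin), an imprinted gene, changed by 4.03 ± 0.21, the homeobox gene Meis1 by 2.94 and Meis2 by 3.19. Nes (nestin), an intermediate filament of neural progenitors, changed by 1.54. Of 3 tested Hox genes, Hoxa2 was at least 2.05-fold higher and Hoxb2 changed by 1.29, while Hoxc6 was at least 1.36-fold lower.

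**Figure D3:**
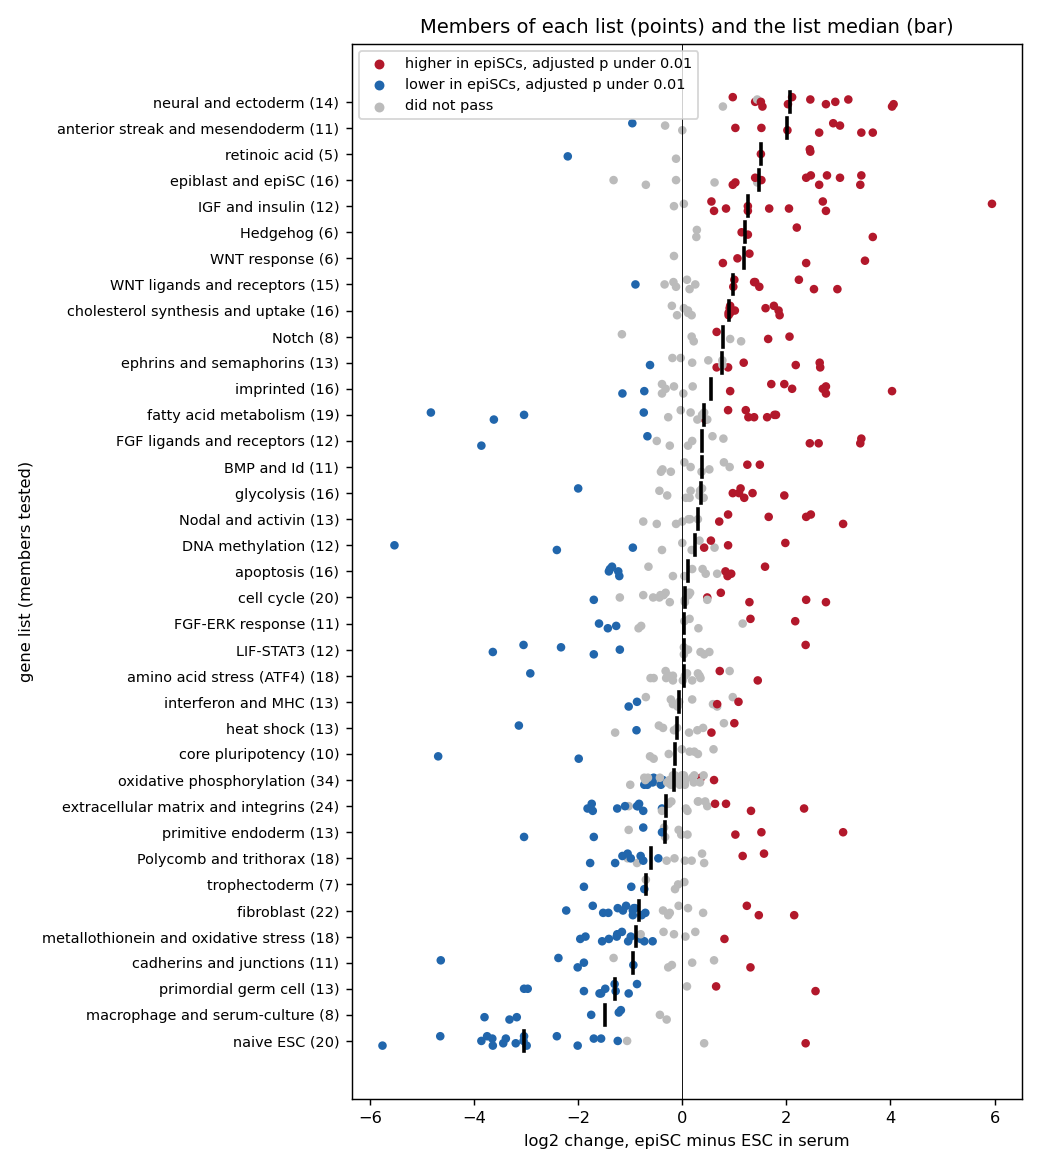
Log2 change (epiSC minus ESC in serum) of each tested member of the lists with at least 5 of them, red and blue for calls at an adjusted p under 0.01, grey for the rest, and a bar for the list's median. The naive list has the lowest median, -3.05, and the neural list the highest, 2.07.

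FGF ligands moved in both directions. Of 12 tested ligands and receptors 4 rose and 2 fell. Fgf15 had 8.28, 7.57, 8.47, 7.19 and 6.90 in the epiSC lines, against 4.88, 5.16 and 5.73 in ESCs, a change of 2.45 ± 0.28 (adjusted p = 2.2e-05). Together with Fgf5 and Fgf8 it stood opposite to Fgf4. Fgfbp3, a carrier that releases FGFs from the matrix, changed by 2.62 ± 0.25, and the receptor gene Fgfr2 by 0.79 (adjusted p = 0.013), which did not pass. Readouts of FGF-ERK were mixed, with 2 of 11 higher and 3 lower. Spred1, an inhibitor of the pathway, changed by 2.17 ± 0.31. Dusp6, an ERK phosphatase, changed by 1.16 and did not pass (adjusted p = 0.011), while Dusp5 changed by -1.27 and the ETS factor gene Etv4 by -1.43. Fos, an immediate early gene that serum induces, changed by -1.6 ± 0.21 (adjusted p = 5.2e-05), and Egr1 by 0.04.

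Nodal and activin genes showed 6 of 13 higher and 0 lower. The ligand gene Nodal itself changed by -0.12 ± 0.23 (adjusted p = 0.69). Its feedback inhibitors were higher. Lefty2 had 11.54, 10.74, 10.82, 11.06 and 10.67 in BL3, BL4, BL7, BL2 and BL6, against 7.82, 8.27 and 9.88 in ESCs. B12 was the ESC array nearest to the epiSCs, and the change was 2.47 ± 0.31 (adjusted p = 4.2e-05). Lefty1 changed by 2.38 ± 0.44. Fst (follistatin), which binds activin, had 7.66, 9.12, 8.80, 8.07 and 8.01 in epiSCs and 4.99, 5.21 and 5.68 in ESCs, a change of 3.09 ± 0.24. The transducer gene Smad3 changed by 1.66 ± 0.14 (adjusted p = 1.8e-06).

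Many genes of the WNT pathway were higher, among ligands, receptors and response genes. Of 15 ligands, receptors and secreted inhibitors 8 rose and 1 fell, and of 6 response genes 5 rose. These are 15 of 21 and 6 of 12 with a probe, and 4 and 1 of them were undetected throughout 1 group. Wnt5a, Fzd2 and Nkd1, undetected on every ESC array, were tested only because they are high in epiSCs. Wnt8a, a streak ligand, changed by 2.24 ± 0.29, and Wnt5a, a ligand of the noncanonical branch, was at least 2.39-fold higher. The receptor gene Fzd2 was at least 5.25-fold higher and Fzd10 changed by 2.53. Sp5, a direct target of beta-catenin, had 7.97, 8.72, 8.96, 7.82 and 7.52 in the epiSC lines, against 4.32, 4.50 and 5.27 in ESCs. The groups were far apart, with a change of 3.51 ± 0.27 (11.4-fold, adjusted p = 1.0e-06). The cyclin genes Ccnd1 and Ccnd2 changed by 1.29 and 2.38, and Nkd1, an inhibitor of Dishevelled, was at least 1.61-fold higher. Axin2, the usual feedback target, changed by 0.78 (adjusted p = 0.0074), and missed without BL4, BL7, BL2, CHE4, JAG1 or B12 (adjusted p from 0.015 to 0.024).

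Downstream of LIF, 5 of 12 genes fell and 1, Gbx2, rose, and 4 of these 6 are also on the naive list. Pim3, a kinase gene induced by STAT3, had 7.94, 7.82, 8.31, 7.86 and 8.75 in epiSCs and 10.22, 10.45 and 10.74 in ESCs, a change of -2.33 ± 0.17 (adjusted p = 7.5e-07). Pim1 was at least 1.31-fold lower. Socs3, the feedback inhibitor of STAT3, changed by 0.52 ± 0.15 and did not pass (adjusted p = 0.01 as rounded), so the list did not move as one. Of the BMP list 2 of 11 members rose. Bmp4 had 5.78, 6.13, 5.95, 5.72 and 8.18 in BL3, BL4, BL7, BL2 and BL6, against 6.03, 6.21 and 8.09 in ESCs, and did not pass (adjusted p = 0.72). BL6 was its highest array of all. Id1, a target of BMP and SMADs, changed by 0.80 (adjusted p = 0.022).

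Hedgehog genes showed 4 of 6 higher: besides Shh, the factor gene Gli3 changed by 2.20 ± 0.21, the receptor gene Ptch1 by 1.26 and Smo by 1.14. In the MEF array Gli3 and Smo stood at 9.90 and 7.72, above their epiSC medians of 9.21 and 7.13. Shh and Ptch1 lay below theirs there. Of 8 Notch genes 3 rose, among them Nrarp (2.06 ± 0.21) and Hey1 (1.65), both targets of the pathway. Of 13 ephrin and semaphorin genes 6 rose and 1 fell. Efnb1, a ligand of Eph receptors, changed by 2.64 ± 0.18, and the guidance gene Slit2 was at least 4.89-fold higher. Slit2 stood at 9.95 in the MEF array, above its epiSC median of 7.23, and Efnb1 at 8.63, below 8.79. In the retinoic acid list 3 of 5 tested genes rose and 1 fell, the receptor gene Rxra, which changed by -2.20. Cyp26a1, which degrades retinoic acid, was at least 3.67-fold higher and Crabp2, which carries it to the nucleus, changed by 2.46. The MEF array stood at 7.72 for Crabp2, above the epiSC median of 7.55, and at 4.58 for Cyp26a1, below 6.86.

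IGF genes held the largest rise of all named genes whose groups did not overlap. Igfbp5, an IGF-binding protein gene, had 10.91, 11.36, 12.16, 11.21 and 11.49 in BL3, BL4, BL7, BL2 and BL6, against 5.23, 5.46 and 5.82 in ESCs. The change was 5.95 ± 0.19 (61.8-fold, adjusted p = 2.5e-09), and 5.94 without BL6. Igf2, an imprinted growth factor, changed by 2.76 ± 0.27. Of 12 IGF genes 10 rose and 0 fell, and 8 rose without BL6. Feeders also express these genes, and the MEF array stood at 11.71 for Igfbp5 and 14.37 for Igf2.

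**Figure D4:**
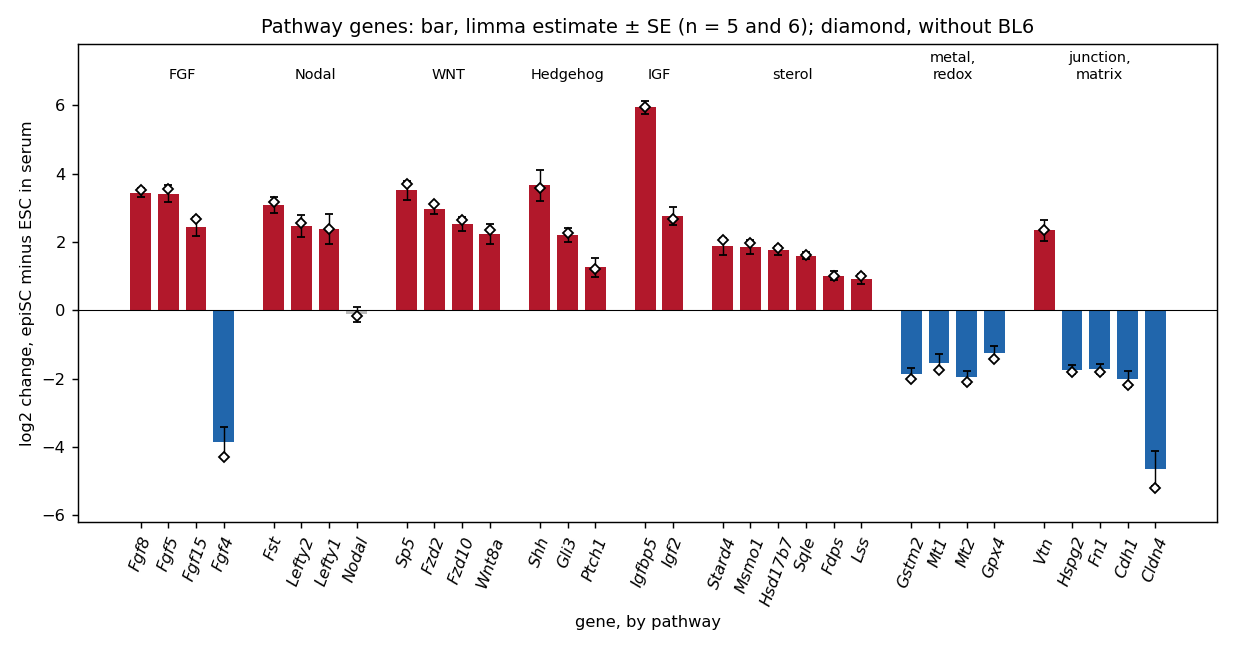
Log2 change (epiSC minus ESC in serum) with its SE for pathway genes, red and blue for calls, grey for Nodal, which did not pass, and a diamond for the value without BL6. Bars run from 5.95 for Igfbp5 to -4.64 for Cldn4, and no diamond lies on the other side of 0 from its bar.

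Fibroblast RNA was measured beside these rises. Of 22 tested fibroblast genes 13 fell in epiSCs and 3 rose, and the summed level of the whole list of 29 was 5378 to 6959 in epiSCs, 7520 to 11702 in ESCs in serum and 110068 in the MEF array. The collagen gene Col1a1 lay 7.21 log2 units below the MEF array in epiSCs and 6.50 below it in ESCs, and Bgn (biglycan) 4.98 and 3.67 below. Acta2 (smooth muscle actin) changed by -1.14, Thy1 by -1.52 and Bgn by -1.42. Igfbp5 in epiSCs lay 0.28 below the MEF array, Sox9 0.23 below it and Nrep 0.09 above it. Those that rose were Vim (vimentin, 1.47), Dcn (decorin, 2.15) and Lum. Lyz1 and Lyz2, lysozyme genes that the MEF array showed at 11.70 and 10.64, changed by -3.32 and -3.18, and of 8 tested genes of the macrophage list 6 fell. Lyz1 was high in BL3 and BL2 among epiSCs, at 7.89 and 8.37, and 4.62 to 5.48 in the others. The macrophage receptor gene Cd14 did not pass, and the cytokine gene Cxcl1 changed by -1.75. Of the 830 genes higher by over 2-fold, 275 (33.1%) stood at or above the epiSC median in the MEF array. Among all tested genes 42.5% did, and among the 756 lower by over 2-fold 49.3%. How much feeders add to any rise was not tested.

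Germline genes were mostly lower, 10 of 13 down and 2 up, with a median of -1.30. Tfap2c, a factor of germ cells and trophoblast, had 7.83, 7.18, 7.99, 7.81 and 9.24 in epiSCs and 9.19, 9.74 and 10.88 in ESCs, a change of -1.89 ± 0.35 (adjusted p = 0.00071). Rnf17, a Tudor protein gene of the germline, was at background in 4 epiSC arrays and at 6.52 in BL6, a change of -2.97. Alpl, the tissue-nonspecific alkaline phosphatase, changed by -1.48. Against this direction, Tdrkh, a Tudor partner of PIWI proteins, changed by 2.56 ± 0.20. Of 4 tested genes of the 2-cell-like state 3 fell. Zscan4c, which protects telomeres, ranged over 6.43, 8.0 and 9.65 in ESCs and was at least 8.42-fold lower in epiSCs.

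Among DNA methylation genes, 4 of 12 rose and 3 fell. Dnmt3l, the cofactor of de novo methylation, had 5.52, 5.08, 7.12, 4.71 and 10.18 in BL3, BL4, BL7, BL2 and BL6, against 11.19, 12.14 and 12.45 in ESCs. BL6 again stood nearest to the ESCs, and the change was -5.53 ± 0.78 (46.2-fold, adjusted p = 9.7e-05). Tet1, which oxidizes methylcytosine, had 7.57, 7.67, 6.65, 7.54 and 8.12 in epiSCs and 9.51, 9.98 and 10.17 in ESCs, a change of -2.41 ± 0.22 (adjusted p = 4.8e-06). Uhrf1, which targets maintenance methylation, changed by less than 0.01 in size (adjusted p = 0.99), and the reader gene Mbd2 by 1.98.

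Of 18 Polycomb and trithorax genes 8 fell and 2 rose. Mtf2, an accessory subunit of PRC2, changed by -1.05 and Cbx7, the main CBX protein of PRC1 in ESCs, by -1.15, while the catalytic subunit gene Ezh2 changed by 0.05 (adjusted p = 0.76). Kdm6b, a demethylase of histone H3 lysine 27, changed by 1.16. Of 16 imprinted genes 8 rose and 2 fell. Cdkn1c, a cell cycle inhibitor, had 11.06, 11.29, 12, 11.53 and 10.91 in epiSCs and 7.78, 8.59 and 9.47 in ESCs, a change of 2.76 ± 0.27, and the MEF array was above the epiSCs, at 12.12. Ndn (necdin) changed by 1.96 and Gnas by 1.71.

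Of 296 X-linked genes tested 79 fell (26.7%) and 46 rose (15.5%), against 18.4% and 21.0% of 8095 autosomal genes, with medians of -0.19 and 0.03. Genes are not independent replicates, and this difference was not tested. Xist, the RNA that coats the inactive X, had 4.57, 5.93, 8.15, 4.52 and 4.41 in BL3, BL4, BL7, BL2 and BL6, and 4.58, 5.27 and 6.18 in ESCs, and was detected in 2 epiSC arrays, highest in BL7. Eif2s3y, from the Y chromosome, had 7.78, 7.23, 4.25, 5.92 and 6.15 in the same order, and PAN1 alone was high among ESCs, at 7.57. In all, 4 of 5 epiSC arrays and 1 of 6 ESC arrays showed Eif2s3y above background. Its part in the X-linked shares was not tested. Rlim, which activates Xist, changed by -0.92.

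Of 16 tested genes of cholesterol synthesis and uptake 10 rose and 0 fell, with a median of 0.90 against 0.03 over all genes. The other 6, Pmvk, Ebp, Tm7sf2, Srebf2, Insig1 and Insig2, lay between -0.20 and 0.18. Sqle (squalene epoxidase) had 10.58, 10.68, 10.49, 10.62 and 10.47 in BL3, BL4, BL7, BL2 and BL6, against 8.73, 8.96 and 9.16 in ESCs. The epiSC arrays lay close together and far above the ESCs, with a change of 1.6 ± 0.11 (3.03-fold, adjusted p = 3.9e-07). Msmo1, a methylsterol oxidase, had 10.57, 10.40, 10.46, 10.71 and 9.99, against 7.91, 8.61 and 9.02 in ESCs, a change of 1.85 ± 0.21. Hsd17b7, a reductase of the same route, had 8.62, 9.02, 8.77, 8.81 and 8.45, against 6.86, 6.92 and 7.38 in ESCs, a change of 1.76 ± 0.13 (adjusted p = 1.0e-06). Fdps changed by 1.01, Lss (lanosterol synthase) by 0.92, and the sterol carrier gene Stard4 by 1.87.

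The promoters of Hsd17b7 and Msmo1 are shown because both genes rose and each holds several CCAAT boxes, the site of NF-Y, which works beside the sterol-regulated factors of the SREBP family. Capitals mark CCAAT on either strand (ATTGG on the other one), with positions and strand as for Zfp42.
Hsd17b7, chr1:169969156-169969455, minus strand: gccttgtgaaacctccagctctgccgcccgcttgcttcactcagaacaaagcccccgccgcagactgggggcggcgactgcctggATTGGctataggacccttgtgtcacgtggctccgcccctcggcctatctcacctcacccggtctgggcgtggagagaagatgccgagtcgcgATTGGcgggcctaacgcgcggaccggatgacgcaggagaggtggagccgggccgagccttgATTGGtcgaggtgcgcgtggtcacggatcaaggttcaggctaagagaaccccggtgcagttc
Msmo1, chr8:64733529-64733828, minus strand: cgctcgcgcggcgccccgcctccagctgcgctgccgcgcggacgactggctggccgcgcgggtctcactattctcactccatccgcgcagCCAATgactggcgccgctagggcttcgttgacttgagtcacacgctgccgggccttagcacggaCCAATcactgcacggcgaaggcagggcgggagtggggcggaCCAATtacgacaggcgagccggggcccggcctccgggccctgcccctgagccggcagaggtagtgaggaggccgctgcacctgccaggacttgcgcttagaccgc
Each holds 3 CCAAT boxes. Of the 10 sterol genes that rose, 7 have a promoter in the RefSeq table (Mvd, Lss, Cyp51, Dhcr7, Msmo1, Nsdhl and Hsd17b7), and all 7 hold a CCAAT, against 37.4% of all 32851 promoters. It was also in 6 of 10 lower metal and redox genes, 3 of 5 higher epiblast genes and 3 of 9 lower naive genes with a promoter. The motif was picked with these results known. A sterol element spelled TCACNCCAC was in 0 of the 7 and in 1.24% of all promoters.

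Lipid genes outside the sterol route were split. Of 19 fatty acid genes 8 rose and 4 fell. The desaturase genes Fads1, Fads2 and Scd2 changed by 1.63, 1.80 and 1.77. Apoe and Apoc1, neighbours in 1 apolipoprotein cluster, changed by -3.04 and -4.83. Apoc1 had 4.75, 4.86, 5.44, 4.73 and 8.57 in the epiSC lines, against 10.04, 10.64 and 10.80 in ESCs, so BL6 was high among epiSCs and still below the ESC range. Of 16 glycolysis genes 6 rose and 1 fell. Tpi1 (triose phosphate isomerase) changed by 1.35 and Ldha (lactate dehydrogenase) by 1.12, which under median scaling was 0.69 and missed (adjusted p = 0.011), and Pfkp, a phosphofructokinase subunit, by -2.0, with BL6 at 8.53 inside the ESC range of 8.44 to 9.32. Of 34 genes of oxidative phosphorylation 2 rose and 6 fell, and without BL6 0 rose and 4 fell.

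Metal and redox genes were lower, 12 of 18 down and 1 up, with a median of -0.89. Mt1 (metallothionein 1), a zinc- and copper-binding protein, had 11.89, 10.86, 12.11, 12.07 and 12.71 in BL3, BL4, BL7, BL2 and BL6, against 13.28, 13.51 and 13.67 in ESCs. Mt2 had 5.22, 5.02, 5.34, 5.32 and 5.82, against 6.83, 7.35 and 7.75 in ESCs. Both were below the ESC range in all 5 epiSC arrays, with changes of -1.54 ± 0.25 (adjusted p = 0.00025) and -1.96 ± 0.19 (adjusted p = 5.6e-06). Gstm2, a glutathione transferase, changed by -1.86 and Gpx4, the peroxidase that repairs lipid hydroperoxides, by -1.26, while Gpx3 changed by 0.81.

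The promoters of these adjacent genes are shown because both genes fell. Capitals mark TGCACNC on either strand, a form of the core of the metal response element. Other forms of the core were not searched and are not marked.
Mt1, chr8:94178839-94179138, plus strand: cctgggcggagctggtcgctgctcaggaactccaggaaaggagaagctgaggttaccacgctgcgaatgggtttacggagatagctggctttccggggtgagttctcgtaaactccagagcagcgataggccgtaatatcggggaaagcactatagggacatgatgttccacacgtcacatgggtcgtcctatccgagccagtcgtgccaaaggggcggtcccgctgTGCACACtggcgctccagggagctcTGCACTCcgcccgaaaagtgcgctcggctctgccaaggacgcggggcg
Mt2, chr8:94172368-94172667, plus strand: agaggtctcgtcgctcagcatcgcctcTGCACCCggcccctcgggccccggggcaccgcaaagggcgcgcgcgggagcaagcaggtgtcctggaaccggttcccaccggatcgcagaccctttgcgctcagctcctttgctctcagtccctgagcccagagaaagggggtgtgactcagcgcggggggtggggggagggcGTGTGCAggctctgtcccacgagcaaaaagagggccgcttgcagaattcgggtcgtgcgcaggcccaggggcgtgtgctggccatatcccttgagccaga
Each holds 2 matches. TGCACNC occurs in 12.6% of all promoters and in 3 of the 10 lower metal and redox genes that have a promoter in the table, Mt1, Mt2 and Gstm1. It was also in 3 of 5 higher epiblast genes (Fgf5, Foxa2 and Sox4). Also searched on both strands were TATAAA (13.6% of all promoters), the STAT site TTCCNGGAA (1.15%, in 0 of the 9 lower naive genes) and TCAAGGTCA, the Esrrb site (0.423%, also in 0 of those 9).

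Junction and matrix genes were lower in part. Of 11 junction genes 5 fell and 1 rose. Cldn4, a tight junction claudin, had 5.61, 4.84, 5.78, 5.14 and 8.20 in the epiSC lines, against 9.26, 10.74 and 11.09 in ESCs, a change of -4.64 ± 0.52 (24.9-fold). Cldn3 changed by -1.89 and the desmosomal cadherin gene Dsg2 by -2.38. Of 24 matrix and integrin genes 10 fell and 4 rose. Fn1 (fibronectin) changed by -1.72, Hspg2 (perlecan) by -1.74 and Timp1, a protease inhibitor, by -1.25, while the protease gene Mmp14 changed by 1.32. Vtn (vitronectin) had 5.82, 7.47, 7.68, 6.0 and 6.84 in epiSCs and was at least 3.14-fold higher.

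Cell cycle genes passed in 6 of 20 cases, 5 higher and 1 lower, and the lower one was Cdkn2a (p16 and p19ARF), with a change of -1.70. Of 16 apoptosis genes 4 rose and 5 fell, among them Mcl1, an antiapoptotic gene, with -1.41 ± 0.13. Of 13 heat shock genes 2 rose and 2 fell, and Hspb1 changed by -3.14, with BL6 at 9.28 and the other epiSCs at 6.80 to 7.50. Markers of trophectoderm did not rise (0 of 7 higher, 3 lower). Of 13 primitive endoderm markers 3 rose and 4 fell, and those that rose were Sox17, Foxa2 and Fst, which the epiblast and Nodal lists also hold.

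Among the largest changes outside these lists, Miat, a long noncoding RNA of neural tissue, was at least 19-fold higher, Car14, a carbonic anhydrase, at least 11.7-fold higher, and Cldn11, a claudin of myelin and testis, at least 9.92-fold higher. Trh, the precursor of thyrotropin-releasing hormone, had levels of 13.28, 13.59, 13.03, 13.56 and 12.81 in the epiSC lines, against 7.38, 8.72 and 11.70 in ESCs. Nrep, Ptn (pleiotrophin), Sox9, Mfap2 and En1 (engrailed 1) changed by 4.48, 4.44, 4.15, 4.13 and 4.05. Other probes gave smaller changes, 2.25 and 2.58 for Mfap2 and 2.24 for En1. The MEF array was at 11.14 for Nrep, 13.39 for Ptn, 9.20 for Sox9 and 8.68 for En1, lay 1.09 above the epiSC median for Mfap2, and was at 5.0 for Miat and 4.26 for Car14.

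Among the largest falls, Ooep, an oocyte-expressed RNA-binding protein gene, had 4.61, 4.57, 7.76, 4.46 and 10.37 in BL3, BL4, BL7, BL2 and BL6, against 11.44, 12.62 and 12.92 in ESCs, a change of -6.13 ± 0.92 (69.9-fold, adjusted p = 0.00015). Rhox5, an X-linked homeobox gene, had 5.74, 4.78, 8.47, 5.15 and 10.75, against 11.12, 12.15 and 12.47 in ESCs. Tdrd12 and Gtsf1l, a germline Tudor gene and a relative of the piRNA factor gene Gtsf1, changed by -4.54 and -4.39, and Pla2g1b, a phospholipase, by -4.64. In all 5 genes BL7 was the second highest epiSC line and BL6 the highest, and no epiSC array reached the ESC range.

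No probe passed the test of whether the epiSC change differed between Blimp1 genotypes. limma's test of that difference, null lines (2 epiSC against 3 ESC) minus heterozygous lines (3 against 3), called 0 of 13856 probes, with a smallest adjusted p of 0.154, and 1780 probes had an unadjusted p under 0.05, where 5% of those tested would be 693. Without BL6 this count was 1134, but that fit leaves 1 null epiSC array, assumed to vary like the other groups. Of the genes named here, Sox11 had the smallest adjusted p, 0.17, at 1.64.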

How the data were processed

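Total RNA was hybridised by the authors to Illumina mouse BeadChips, 1 array per line. The deposited intensity of each of 45281 probes is non-normalized, and the deposited detection p-value compares it with the array's negative controls. The deposited value table holds log2-scale values that the authors made with lumi (variance-stabilizing transformation, quantile normalization) for 20482 probes, with versions not given in the sources used here. In the signal table, 2 columns of intensities belong to no sample used here. The 11 arrays' signals went through neqc of limma 3.58.1 in R 4.3.3 (background from the negative controls, offset 16, quantiles equalized), and probes with a detection p under 0.01 on at least 5 arrays were tested with lmFit and eBayes, with Benjamini-Hochberg adjustment at 0.01. A gene stands for its probe with the highest mean. Other probes can give other changes, such as -3.08 and -2.39 for Dppa4, -1.39 for Pecam1 and -5.70 for Dnmt3l. Names came from the platform annotation, with 17604 probes of 1 symbol, 8 of several and 2870 of none. Where a group was undetected on every array, the fold is a lower bound. Named genes were those the study names, the 15 largest rises and 15 largest falls without overlap, the state and feeder markers and, of each of 41 lists, the 6 members with the smallest p and the 2 brightest that did not pass, from which the text gives a selection. Members and lists were chosen with earlier results of these data known. Each gene's SE comes from the same fit, the number of arrays limits the precision, and p-values measure the spread between lines. The fit was tested on simulated data. The alternatives changed background correction, scaling, offset, filter, arrays, covariates, weights and threshold.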

Additional observations from a re-analysis of the deposited data

Results flagged for a closer look

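In 310 groups of 5 or 6 arrays, 28 held 1 array far from the others for their range. Independent normal values give such a gap in about 1 group in 20. These groups share their arrays and hold genes chosen partly for their changes, so the count cannot be set against that rate. Of the 28, 15 were the epiSC array BL6. BL6 lay above the other 4 epiSC arrays, on the side of the ESC levels, for the pluripotency genes Klf5 (10.25, others 8.12 to 8.69), Prdm14 (5.49, others 4.28 to 4.50) and Fgf4 (6.59, others 4.38 to 4.60). Sox2 in BL6 (8.76, others 7.87 to 8.03) lay above the ESC median of 8.29. BL6 was on the ESC side too for the germline and 2-cell genes Rnf17 (6.52), Tdrd12 (7.89), Gtsf1l (8.94) and Zscan4c (5.15), and for Apoc1 (8.57), Gstm2 (8.79), Cldn4 (8.20), Laptm5 (8.42), Hspb1 (9.28) and Pla2g1b (9.25). Bmp4 in BL6, at 8.18, lay above every ESC array as well. The other epiSC arrays that stood apart were Acta2 in BL4 (10.98) and Ptn in BL7 (10.08).

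Among ESCs, B12 stood apart for Dppa3 (6.75, others 8.50 to 8.95), Lefty2 (9.88, others 7.82 to 8.58), Hsd17b7 (7.38), Apoe (10.09), Cldn4 (9.26) and Sox9 (5.45). PUM3 stood apart for Nnat (5.43) and Uhrf1 (9.80), PAN1 for Eif2s3y (7.57) and Ooep (11.44), and JAG1 for Cldn11 (4.53). The causes were not tested.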

How the results depend on the processing

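Of 5139 probes called, 2604 higher and 2535 lower in epiSCs, the counts moved by over 1.5 times under few alternatives. Heterozygous lines alone gave 2923 probes (1431 higher, 1492 lower), and null lines alone gave 1528 (800 higher, 728 lower) and 1 naive member lower; both use fewer arrays. A change over 2-fold was met by 2415 (1204 higher, 1211 lower). Median scaling gave 1711 higher, 38.5% of its calls against 50.7%; the cause was not tested. Without each array in turn, 4087 to 5308 probes were called, 2173 to 2693 higher and 1904 to 2667 lower. No line is in both groups, and the replicate numbers were not taken to pair lines. Deviations of same-numbered arrays from the means of their label groups correlated at 0.054, 0.175, 0.227, 0.0043 and 0.0052. The null epiSC group holds 2 arrays, whose deviations mirror each other, so 0.0043 and 0.0052, from null pairs, say little about pairing. With a replicate block 3288 probes were called (1786 higher, 1502 lower), against 4087 without it over the same 10 arrays, a comparison chosen after seeing the data. The difference between genotypes called 0 probes under each alternative run, with a smallest adjusted p of 0.0121 without BL2; without BL2 or BL6, 1 null epiSC array remains and is assumed to vary like the other groups.

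Of 155 named genes 136 passed. Over 3861 values under alternatives 0 reversed, 136 missed the threshold and 41 newly passed, and 79 genes kept their side of the threshold throughout. With no filter on dim probes Dppa5a, Utf1, Ptch1 and Col1a1 missed (limma adjusted p from 0.011 to 0.02). Pou3f1, Axin2, Prdm14 and Zfp42 missed there too (0.024 to 0.043). With median scaling Pou3f1 (0.016), Axin2 (0.026) and Ldha (0.011) missed, and with all 22 arrays Axin2 (0.015) and Hoxc6 (0.054). Without BL6, Pou3f1 was lost and Nr5a2 gained. BeadChip as a block was not run, because the headers used here do not give it. Probes near background limit low genes to bounds, and 5 and 6 lines limit precision.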
